A study of Mus musculus with 4 samples.

Results

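The proteasome genes of mouse liver were compared between DBA/2J and C57BL/6J, inbred laboratory strains, in poly(A)-selected RNA. Members were taken by symbol, as every gene named Psma to Psmg followed by a number, which gave 49 of the 50584 genes counted. They comprise 16 core particle genes (8 alpha and 8 beta subunits), the 3 immunoproteasome genes Psmb8, Psmb9 and Psmb10, 20 regulatory particle genes (6 ATPases and 14 named Psmd), 6 activator or inhibitor genes and 4 assembly chaperone genes. Each strain gave 2 libraries from wild-type males aged 14 weeks on a chow diet, and the series' design speaks of separate mice. DBA/2J and C57BL/6J differ across the whole genome, so a difference between them cannot be assigned to any single allele. In bulk liver RNA, fewer cells of a type and less RNA per cell cannot be told apart.

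The proteasome is the large protease that degrades proteins tagged with ubiquitin. Its core particle is a barrel of alpha rings, which gate entry, around beta rings, in which Psmb6, Psmb7 and Psmb5 carry the caspase-like, trypsin-like and chymotrypsin-like cutting sites. The regulatory particle binds ubiquitin chains, removes them and feeds the unfolded protein into the core through a ring of ATPases. Interferon gamma induces Psmb9, Psmb10 and Psmb8, which replace Psmb6, Psmb7 and Psmb5 in newly built particles and change the peptides made for antigen presentation. Hepatocytes, the main cells of liver, are known to carry constitutive particles and to gain immunoproteasomes during inflammation.

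Total counts ran from 48096706 to 52520737 per library. The 49 members took 0.322% and 0.327% of counts in the DBA/2J libraries and 0.364% and 0.365% in the C57BL/6J libraries. Values are given as CPM, the counts scaled to library size after TMM normalisation, in the order replicate 1, replicate 2. A gene was called where the adjusted p of the edgeR quasi-likelihood test, by the Benjamini-Hochberg method over all 15647 genes tested, lay under 0.05. The summed level of 6 hepatocyte markers, led by albumin, was 88016 and 82058 CPM in DBA/2J and 96601 and 83473 CPM in C57BL/6J, and 0 of the 6 were called by edgeR (1 at an unadjusted p under 0.05; 2 by DESeq2, 1 in each direction).

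Of the 49 members, 48 passed the filter on low counts, and 46 of them had a mean of at least 5 CPM. Psmb11, the beta subunit known from thymic cortical epithelium, stood at 0 counts in all 4 libraries and was not tested. In DBA/2J, 19 of the 48 (39.6%) were called lower, where 8.87% of all genes tested were called lower. None of the 48 (0) was called higher by edgeR, against 9.29% of all genes. At an unadjusted p under 0.05 (edgeR), 27 were lower and 0 higher. No share over all genes is given at that threshold, so counts at it cannot be set beside all genes. DESeq2 called 19 members lower and 0 higher, where it called 9.47% of 16803 genes lower and 9.36% higher. These shares also belong beside the other DESeq2 counts given here. The median log2 difference (DBA/2J over C57BL/6J) of the members was -0.29, with a range from -1.22 to 0.30, and that of all genes was 0.01. Of the 48, 40 were negative, where 49.3% of all genes were. When libraries were scaled by their totals alone, 36 members were negative. Both DBA/2J libraries lay below both C57BL/6J libraries for 38 of the 48 members, against 31.2% of all genes. They lay above for 5 members, against 32.5% of all genes, and the strains overlapped for the other 5. Exons of 14 members overlap those of another gene symbol, where reads may be lost or shared. Among called genes, Psmb5 shares 12.5% of its exon bases with Mir686 and Psmd9 25.5% with Gm26745, and both partners had 0 counts in all 4 libraries. Partners of other called genes had counts. Psmc3 shares 8.25% with Slc39a13 (601 to 704 counts) and Psma4 4.81% with AY074887 (15 to 34 counts). Psme1 shares 0.634% with Emc9 (1183 to 1716 counts) and Psma5 4.54% with 1700010K24Rik (0 to 1 counts).

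These counts depended on the libraries and on the fit. In the fits that left out DBA/2J replicate 1 and DBA/2J replicate 2 in turn, 1 member stayed called, while 0.649% and 0.7% of all genes were then called lower. The median of the members was -0.31 and -0.28 in those fits. An offset for exon length left 8 members and 7.56% of all genes called lower, with a median of -0.18 for the members.

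**Figure D1:**
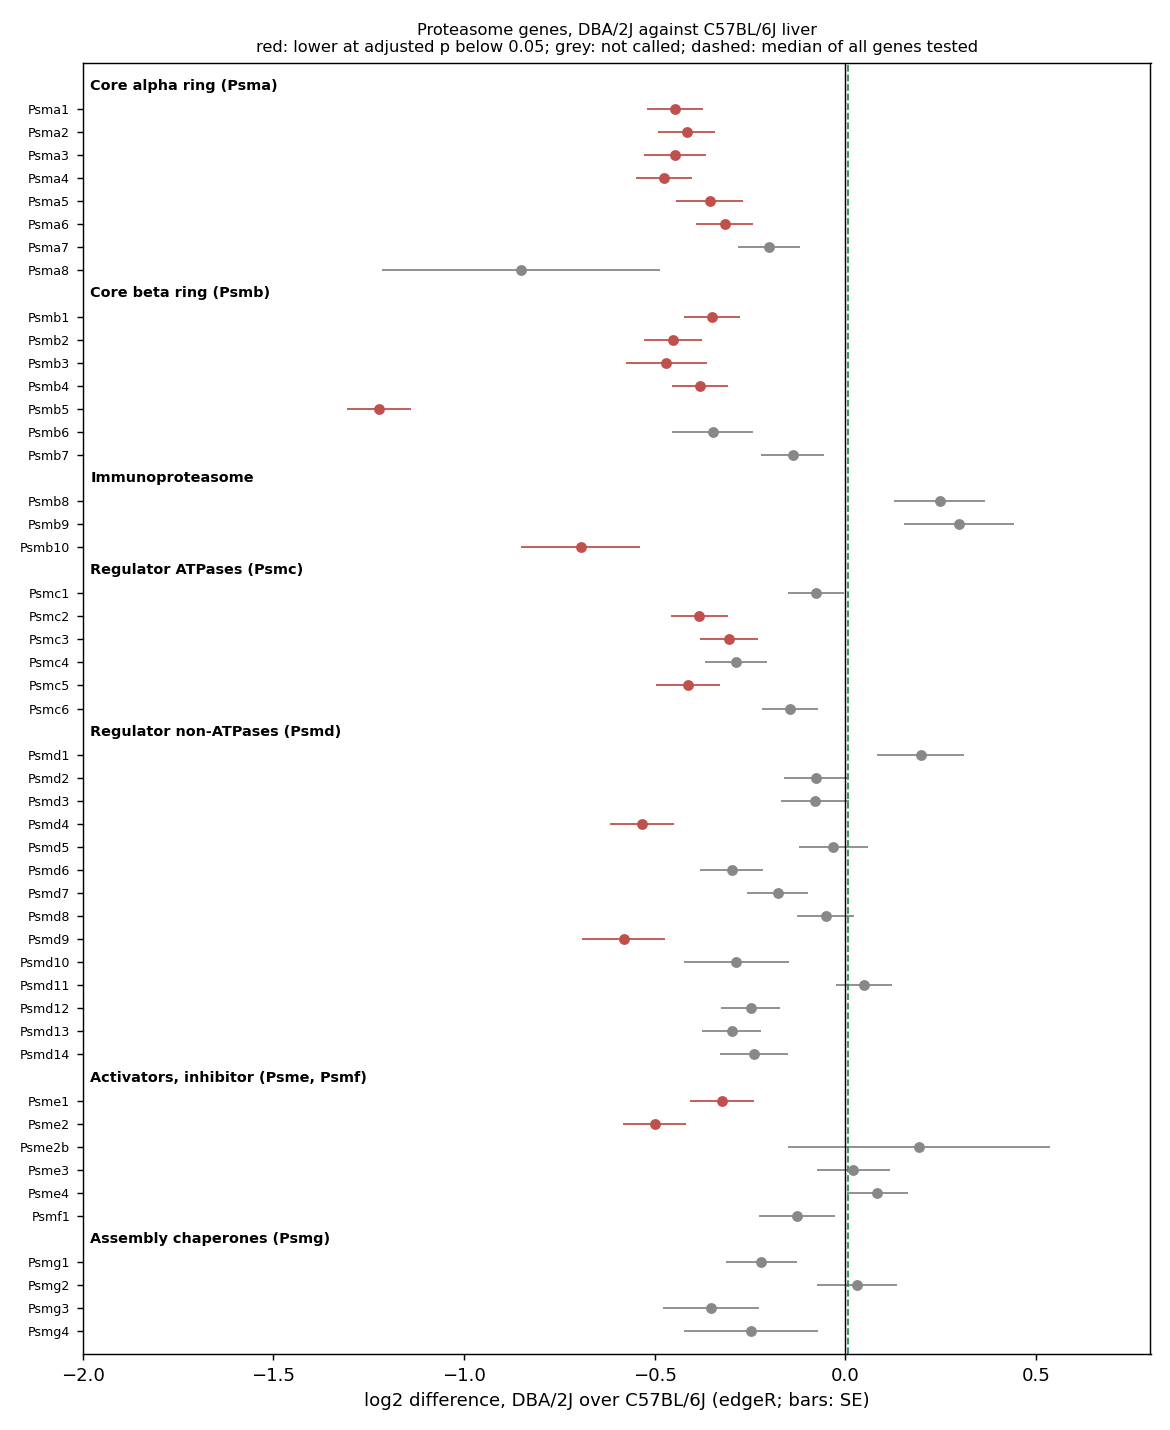
Log2 difference of each tested proteasome gene, DBA/2J over C57BL/6J, on the horizontal axis, with bars of 1 SE, grouped by role; red points were called lower and grey points were not called. The core genes all lie left of 0, Psmb5 lies farthest left at -1.22, and Psmb8 and Psmb9 lie right of 0.

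**Figure D2:**
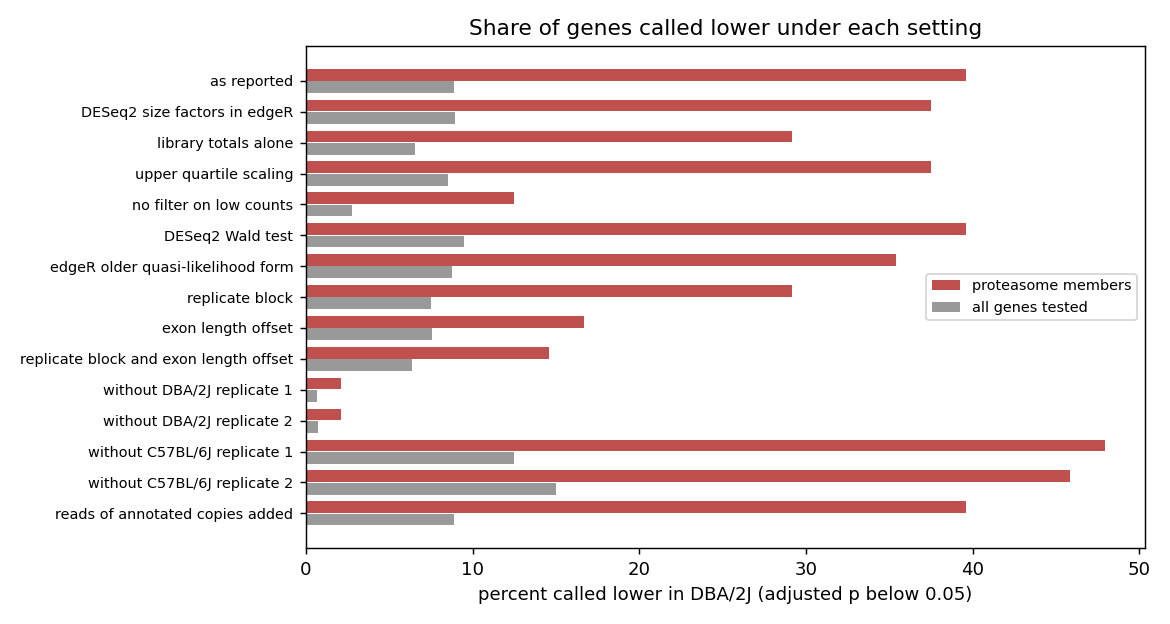
Percentage of tested proteasome genes (red) and of all genes tested (grey) called lower in DBA/2J, on the horizontal axis, under the fit reported and each alternative. The red bar is longer than the grey bar under every setting drawn, and both are short in the fits that leave out a DBA/2J library.

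Among the core particle genes, 11 of 15 tested were called lower in DBA/2J (73.3%) and 0 higher, where 8.87% of all genes were called lower and 9.29% higher. All 15 had a negative log2 difference, with a median of -0.42, where 49.3% of all genes were negative. For all 15, both DBA/2J libraries lay below both C57BL/6J libraries, against 31.2% of all genes. The values lay between -1.22 and -0.14. The alpha subunits contributed 6 of 8 and the beta subunits 5 of 7. In the fits without a DBA/2J library, 1 core gene stayed called. With the offset for exon length, 4 core genes were called lower, where 7.56% of all genes were. With no filter on low counts it was also 4 core genes, where 2.74% of all genes were called lower.

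Psmb5, which encodes the chymotrypsin-like subunit, showed the largest called difference. The gene lies on the reverse strand of chromosome 14 at 54614120 to 54617995 (GRCm38). It had 1144 and 1296 counts in DBA/2J and 2607 and 2821 in C57BL/6J. Its mean level was 23.6 ± 0.202 CPM in DBA/2J against 55.0 ± 2.14 CPM in C57BL/6J (SD, n = 2 each), so both DBA/2J libraries stood far below both C57BL/6J libraries. The log2 difference was -1.22 ± 0.08 (SE), 2.33-fold lower in DBA/2J, and edgeR's adjusted p was 0.00110. Psmb5 was the one member called in each of the 14 alternative fits, with a highest edgeR adjusted p of 0.0392 over the fits that left out a library.

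The size of the Psmb5 difference was smaller once a near-identical copy was counted with it. Gm3375, annotated as a processed pseudogene, lies on the forward strand of chromosome 7 at 3181093 to 3181888 (GRCm38) and matches the Psmb5 transcript at 98.869% of 796 aligned bases. Against the coding sequence it has 9 differences, of which 1 is a gap base. Of the 694 stretches of 100 bases, the read length per the labels, 185 (26.7%) hold no difference. The stretch below is coding bases 288 to 387 of the GENCODE transcript, written 5′ to 3′ on the coding strand. It was picked as a gap-free stretch of 100 bases with the most differences, so others hold as many or fewer. Capitals mark the 3 differences.
Psmb5: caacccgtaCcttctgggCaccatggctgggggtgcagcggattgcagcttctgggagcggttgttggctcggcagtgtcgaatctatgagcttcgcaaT
Gm3375: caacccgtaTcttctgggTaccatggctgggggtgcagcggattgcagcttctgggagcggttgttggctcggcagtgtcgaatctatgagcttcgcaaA

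Gm3375 had 434 and 574 counts in DBA/2J and 25 and 10 in C57BL/6J, the opposite order to Psmb5. Its log2 difference was 4.76 ± 0.36, with an edgeR adjusted p of 0.00152. Counted together, Psmb5 and Gm3375 reached 32.7 and 33.8 CPM in DBA/2J and 54.0 and 56.7 CPM in C57BL/6J. The strains still did not overlap. The summed difference was -0.74 ± 0.08 (SE), 1.66-fold lower in DBA/2J, with an edgeR adjusted p of 0.00477. The DBA/2J reads, too, were aligned to a C57BL/6J-derived genome, and the locus from which the Gm3375 reads came was not tested.

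**Figure D3:**
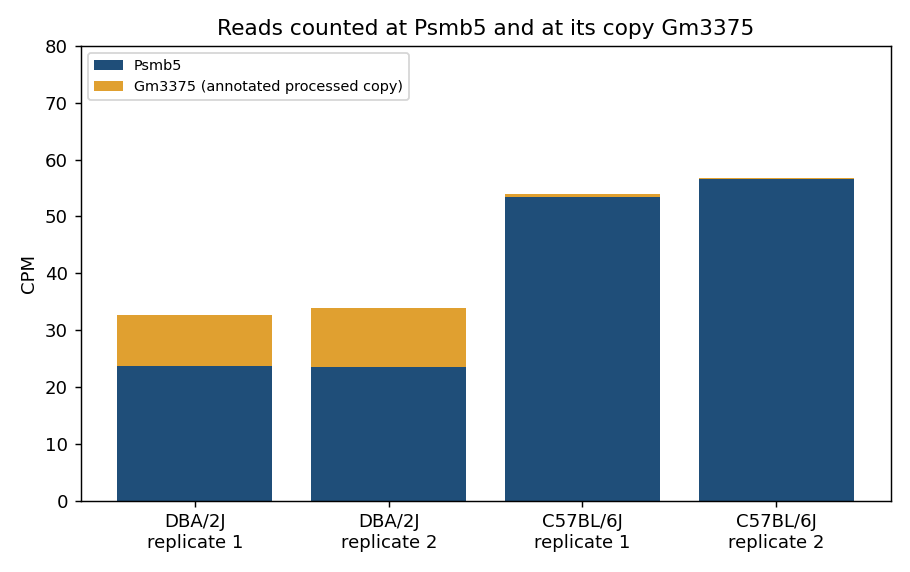
CPM at Psmb5 (blue) and at its annotated copy Gm3375 (orange), stacked, 1 bar per library. Gm3375 adds a visible part in both DBA/2J libraries and almost none in C57BL/6J, and the summed bars stand at 32.7 and 33.8 CPM in DBA/2J against 54.0 and 56.7 CPM in C57BL/6J.

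Among the other core genes, 6 structural subunits had the lowest adjusted p values. Among the alpha subunits, Psma4 stood at 80.9 and 79.1 CPM in DBA/2J and 110.2 and 112 CPM in C57BL/6J. Psma1 stood at 75.4 and 76.3 CPM in DBA/2J and 103 and 104 CPM in C57BL/6J. Both genes showed tight pairs within a strain and no overlap between strains. Their log2 differences were -0.48 ± 0.07 and -0.45 ± 0.07 (SE), with edgeR adjusted p values of 0.0127 and 0.0147. Psma2 followed with 50.3 and 50.7 CPM in DBA/2J and 68.1 and 66.8 CPM in C57BL/6J, and a difference of -0.42 ± 0.08 (edgeR adjusted p = 0.0190). Psma3 had 60.6 and 63.6 CPM in DBA/2J and 87.5 and 81.9 CPM in C57BL/6J, and a difference of -0.45 ± 0.08 (edgeR adjusted p = 0.0195). All 4 genes, named for their low adjusted p, were lower in each DBA/2J library than in either C57BL/6J library.

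Psma3 also has an annotated copy whose counts ran the other way. Gm4742, a processed pseudogene on chromosome 14, had 37 and 44 counts in DBA/2J and 1 and 2 in C57BL/6J. The ratio of the strains was 25.7, with an exact 95% interval from 8.49 to 127 that covers counting error only (edgeR adjusted p = 0.00381). The number of reads was small beside Psma3: with the counts of its 3 annotated copies added, the Psma3 difference was -0.43. No stretch of 100 bases (0 of 670) was free of differences between these sequences. Coding bases 212 to 311 of the GENCODE transcript, 5′ to 3′ on the coding strand, are given to set beside the Psmb5 stretch, with 7 differences in capitals. They were picked in the same way, as a gap-free stretch with the most differences.
Psma3: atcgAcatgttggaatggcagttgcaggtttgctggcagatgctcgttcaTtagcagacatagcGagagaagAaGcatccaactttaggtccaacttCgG
Gm4742: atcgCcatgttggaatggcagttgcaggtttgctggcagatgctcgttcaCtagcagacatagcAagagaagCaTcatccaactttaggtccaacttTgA

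The structural beta subunits Psmb2 and Psmb4 were also called lower in DBA/2J. Psmb2 stood at 53.5 and 52.0 CPM in DBA/2J and 72.3 and 72.0 CPM in C57BL/6J, a difference of -0.45 ± 0.08 (edgeR adjusted p = 0.0153). Psmb4 stood at 112 and 111 CPM in DBA/2J and 144 and 146 CPM in C57BL/6J, a difference of -0.38 ± 0.07 (edgeR adjusted p = 0.0224). Neither gene overlapped between strains. The remaining called core genes, Psmb1, Psmb3, Psma5 and Psma6, had log2 differences of -0.35, -0.47, -0.36 and -0.32, with edgeR adjusted p values from 0.0286 to 0.0435.

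The catalytic subunits Psmb6 and Psmb7 were not called in the fit of all 4 libraries. Psmb6, the caspase-like subunit, had 104 and 102 CPM in DBA/2J and 144 and 119.6 CPM in C57BL/6J, and its difference was -0.35 ± 0.11 (edgeR adjusted p = 0.0770). Without C57BL/6J replicate 2 Psmb6 stood at -0.48, and without C57BL/6J replicate 1 it stood at -0.22. Psmb7, the trypsin-like subunit, had 66.5 and 64.4 CPM in DBA/2J and 69.1 and 75.0 CPM in C57BL/6J, and its difference was -0.14 ± 0.08 (edgeR adjusted p = 0.288). For both genes the DBA/2J libraries lay below the C57BL/6J libraries. Exons of Psmb7 overlap those of Nek6 on the opposite strand over 11.8% of their bases, and the counting carried no strand option. Psma7 had a log2 value of -0.20 (edgeR adjusted p = 0.140). Psma8, the alpha subunit known from testis, had 39 and 57 counts in DBA/2J and 103 and 61 in C57BL/6J, and its estimate was wide (-0.85 ± 0.36, edgeR adjusted p = 0.161). It stood at -1.19 without C57BL/6J replicate 2 and at -0.41 without C57BL/6J replicate 1.

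**Figure D4:**
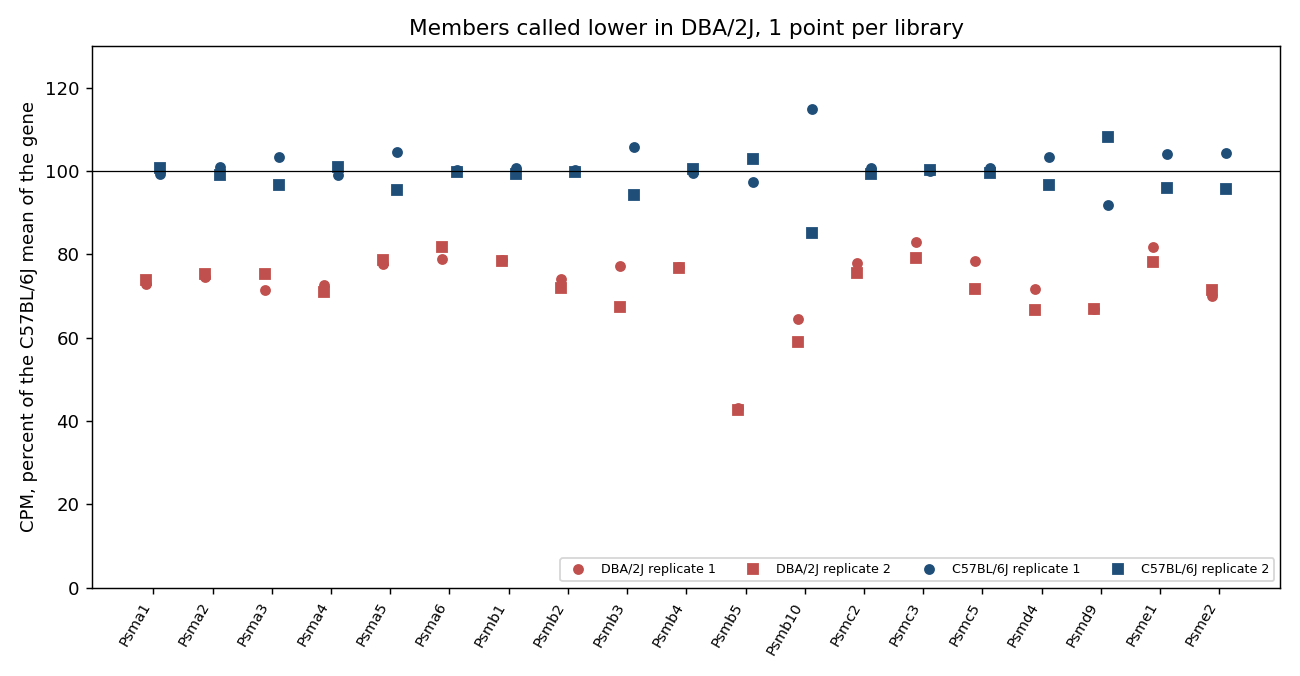
CPM of each of the 19 called members in each library, as a percentage of that gene's C57BL/6J mean, 1 point per library, on an axis that starts at 0. Both DBA/2J points lie below both C57BL/6J points for all 19 genes, Psmb5 lies lowest, and the C57BL/6J points of Psmb10 lie far apart.

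Among the regulatory particle genes, 5 of 20 were called lower in DBA/2J (25%) and 0 higher, where 8.87% of all genes were called lower and 9.29% higher. The median log2 difference was -0.24. Of these 20, 18 were negative and 2, Psmd1 and Psmd11, were positive, where 49.3% of all genes were negative. Scaled by library totals, Psmc1, Psmd2, Psmd5 and Psmd8 also turned positive, and with the offset for exon length Psmc1 did and Psmd11 turned negative. Whether the core and the regulator differ in their share of calls was not tested. With no filter on low counts, 2.74% of all genes were called lower. Without that filter 1 regulator gene stayed called, and the regulator genes lost their calls in each fit lacking a DBA/2J library. Without C57BL/6J replicate 1, calls rose over all genes as well as among the regulator genes, so they are not counted here.

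The 6 ATPases unfold substrates and thread them into the core, and 3 of the 6 were called lower, where 8.87% of all genes were. Psmc2 had 72.5 and 70.3 CPM in DBA/2J and 93.8 and 92.3 CPM in C57BL/6J, a difference of -0.38 ± 0.07 (edgeR adjusted p = 0.0233). Psmc5 had 66.0 and 60.3 CPM in DBA/2J and 84.6 and 83.6 CPM in C57BL/6J, a difference of -0.41 ± 0.08 (edgeR adjusted p = 0.0254). Both genes were lower in each DBA/2J library than in either C57BL/6J library. Psmc3 followed at -0.30 (edgeR adjusted p = 0.0454). Psmc4, Psmc6 and Psmc1 had values of -0.29, -0.15 and -0.08, with edgeR adjusted p values of 0.0627, 0.225 and 0.508. For all 6 ATPases both DBA/2J libraries lay below both C57BL/6J libraries, against 31.2% of all genes.

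Of the 14 genes named Psmd, 2 were called lower (14.3%), where 8.87% of all genes were. Psmd4, a ubiquitin receptor of the regulatory particle, had 87.9 and 81.9 CPM in DBA/2J and 127 and 119 CPM in C57BL/6J. Its difference was -0.53 ± 0.08 (edgeR adjusted p = 0.0132), and the strains did not overlap. Psmd9, a chaperone that helps assemble the ATPase ring and leaves before the particle is complete, had 25.2 and 25.2 CPM in DBA/2J and 34.6 and 40.7 CPM in C57BL/6J. Its difference was -0.58 ± 0.11 (edgeR adjusted p = 0.0208), again without overlap. The other chaperones of ring assembly among these genes, Psmd10 and Psmd5, had values of -0.29 (edgeR adjusted p = 0.204) and -0.03 (edgeR adjusted p = 0.831).

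None of the scaffold and lid genes named Psmd was called in the fit of all 4 libraries. Psmd2 and Psmd1, the large scaffold subunits, had values of -0.08 and 0.20, with edgeR adjusted p values of 0.549 and 0.275. Without C57BL/6J replicate 2, Psmd1 stood at 0.34, and without C57BL/6J replicate 1 it stood at 0.06. Psmd14, the enzyme that cuts ubiquitin chains off the substrate, had a value of -0.24 (edgeR adjusted p = 0.116). Among the lid subunits, Psmd13, Psmd6 and Psmd12 missed the threshold at -0.30, -0.30 and -0.25, with edgeR adjusted p values of 0.0502, 0.0596 and 0.0798. Exons of Psmd13 overlap those of Sirt3 on the opposite strand over 10.1% of their bases. Psmd3, Psmd7, Psmd8 and Psmd11 lay between -0.18 and 0.05, and none of them was called. Psmd11 has an annotated copy, A730017L22Rik, with 795 and 890 counts in DBA/2J and 549 and 593 in C57BL/6J, and with the reads of its copies added the Psmd11 value was 0.10.

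The immunoproteasome genes did not move as a group. Psmb10 was called lower in DBA/2J, whereas Psmb8 and Psmb9 had positive values and were not called. Psmb10 had 29.0 and 26.5 CPM in DBA/2J and 51.5 and 38.2 CPM in C57BL/6J, so the C57BL/6J libraries lay far apart but still above both DBA/2J libraries. Its difference was -0.69 ± 0.16 (SE), 1.62-fold lower in DBA/2J (edgeR adjusted p = 0.0345). Psmb10 lost its call in each fit lacking a DBA/2J library, where the highest edgeR adjusted p was 0.238, with no filter on low counts and with the offset for exon length. Psmb10 lies on chromosome 8 at 105935735 to 105938444 (GRCm38).

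Psmb8 and Psmb9 lie close together on chromosome 17, in the major histocompatibility complex, with Tap1 between them, at 34197721 to 34201454 and 34181988 to 34187764 (GRCm38). Psmb8 had 26.1 and 22.0 CPM in DBA/2J and 21.0 and 19.5 CPM in C57BL/6J, and its difference was 0.25 ± 0.12 (edgeR adjusted p = 0.207). Psmb9 had 28.0 and 21.5 CPM in DBA/2J and 19.8 and 20.5 CPM in C57BL/6J, and its difference was 0.30 ± 0.14 (edgeR adjusted p = 0.205). For both genes the DBA/2J libraries lay above the C57BL/6J libraries, by little. Without DBA/2J replicate 1 the values were 0.10 for Psmb8 and 0.08 for Psmb9, so the size of both rested on that library. Exons of Psmb9 overlap those of Tap1 on the opposite strand over 5.79% of their bases.

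The level of each immunoproteasome gene was set against the subunit it replaces, as a ratio of CPM per kb of exon. The Psmb8 to Psmb5 ratio was 0.351 and 0.299 in DBA/2J and 0.125 and 0.110 in C57BL/6J, 2.76-fold higher in DBA/2J. With the reads of Gm3375 added to Psmb5 it was 0.254 and 0.207 in DBA/2J and 0.124 and 0.110 in C57BL/6J, 1.97-fold higher. In both forms the strains did not overlap, and most of the first difference came from the denominator, since Psmb8 itself differed by 0.25 and Psmb5 by -1.22 on the log2 scale. The Psmb9 to Psmb6 ratio was 0.138 and 0.108 in DBA/2J and 0.0706 and 0.0878 in C57BL/6J, 1.55-fold higher in DBA/2J. The Psmb10 to Psmb7 ratio ran the other way, at 0.874 and 0.825 in DBA/2J and 1.50 and 1.02 in C57BL/6J. An exact two-sided permutation test over the 4 libraries gave p = 0.333 for each of the 3 ratios, the smallest value that 2 libraries against 2 can give, so no ratio could pass a threshold of 0.05.

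**Figure D5:**
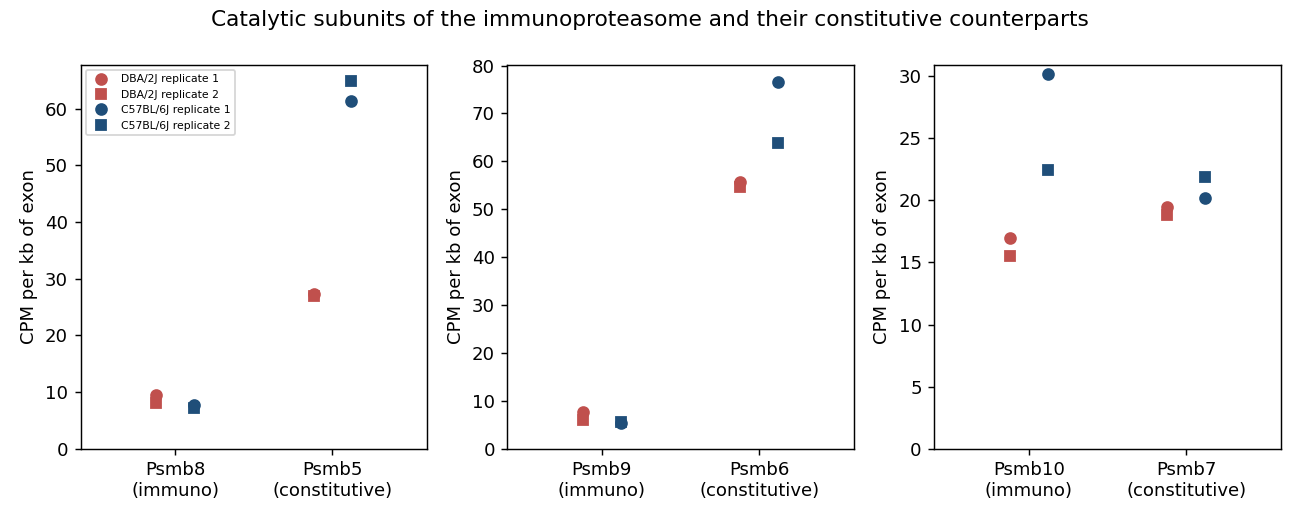
Level in CPM per kb of exon of each immunoproteasome gene and of the constitutive subunit it replaces, 1 point per library, on axes that start at 0. Psmb5 falls apart by strain, Psmb8 and Psmb9 are low in all 4 libraries, and Psmb10 is highest in C57BL/6J replicate 1.

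Among the activators, Psme1 and Psme2, whose products form the interferon-inducible cap that opens the core, were both called lower in DBA/2J. Psme2 had 64.9 and 66.1 CPM in DBA/2J and 96.6 and 88.7 CPM in C57BL/6J, a difference of -0.50 ± 0.08 (edgeR adjusted p = 0.0148). Psme1 had 85.2 and 81.3 CPM in DBA/2J and 108 and 99.9 CPM in C57BL/6J, a difference of -0.32 ± 0.08 (edgeR adjusted p = 0.0494). The strains did not overlap for either gene, but Psme1 was called in 3 of the 14 alternatives and lost its call without C57BL/6J replicate 1 (edgeR adjusted p = 0.0586) and in the fits lacking a DBA/2J library (up to 0.306). Psme2 is 99.37% identical over 794 bases to Psme2b, which had 30 and 30 counts in DBA/2J and 28 and 22 in C57BL/6J, so the split of reads between them is uncertain. Psme2b, Psme3, which encodes a nuclear activator, Psme4, which encodes a large activator, and the inhibitor gene Psmf1 had values of 0.19, 0.02, 0.08 and -0.13, and none was called.

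Of the chaperones that build the alpha ring, Psmg1 to Psmg4, 0 of 4 were called by edgeR and 1 had an unadjusted p under 0.05. Over all genes 8.87% were called lower and 9.29% higher, so 0 calls among 4 genes tell little about the chaperones. Psmg1, Psmg2, Psmg3 and Psmg4 had log2 values of -0.22, 0.03, -0.35 and -0.25. DESeq2 also called 0 of them, where it called 9.47% of all genes lower and 9.36% higher.

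Levels per kb of exon differed widely among genes whose products enter the core in equal number. Psmb1 had the highest level, at a mean of 106 CPM per kb in DBA/2J and 135 in C57BL/6J. Leaving out Psma8, the lowest core gene was Psma3 in DBA/2J, at 15.9, and Psmb7 in C57BL/6J, at 21.1. The highest core level was 6.62 times the lowest in DBA/2J and 6.39 times in C57BL/6J. Exon length here sums all annotated exons of a gene, including those of transcripts that liver may not use.

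Replicates of one strain differed less for the members than for all genes tested, a comparison not matched for expression level. The median absolute log2 difference within the DBA/2J pair was 0.06 for members and 0.14 for all genes, and within the C57BL/6J pair it was 0.08 and 0.21. This spread was not computed for genes of like level, so the part of expression level in it was not tested. The members were also short, with a median exon length of 2348 bases against 3715 for all genes tested. Among 4792 other genes of like length, from 1505.75 to 3388 bases, 11.5% were called lower in DBA/2J and 6.59% higher, with a median log2 difference of -0.08. Among 2302 other genes of like level, from 37.7 to 100.2 CPM, 13.3% were called lower and 11.7% higher, with a median of -0.01. Across genes, which are not independent replicates, the Spearman correlation of the log2 difference with exon length was 0.318 over the 48 members and 0.165 over 15599 other genes.

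Genes that work beside the proteasome were also listed. Of 14 tested genes of proteasome assembly and regulation, 3 were called lower and 0 higher, where 8.87% of all genes were called lower and 9.29% higher. At an unadjusted p under 0.05, 7 were lower and 0 higher, and DESeq2 called 3 lower and 0 higher. The called genes were Ublcp1, a phosphatase of the proteasome (-0.97, edgeR adjusted p = 0.00525), Sem1, a small lid subunit (-0.57, edgeR adjusted p = 0.0122), and Pomp, which guides assembly of the core (-0.39, edgeR adjusted p = 0.0227). Nfe2l1, whose product is known to raise transcription of proteasome genes when the protease is inhibited, had a value of -0.17 (edgeR adjusted p = 0.165).

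Of 15 tested genes of antigen processing and the interferon response, 0 were called lower and 2 higher by edgeR (2 lower and 4 higher at an unadjusted p under 0.05; 1 and 3 by DESeq2), where 8.87% of all genes were called lower and 9.29% higher. Erap1, which trims peptides, had a value of 0.46 (edgeR adjusted p = 0.0269), and Tap2, a peptide transporter, 0.50 (edgeR adjusted p = 0.0494). Each of these 5 companion calls was lost in at least 1 fit without a DBA/2J library, with the highest adjusted p of each gene between 0.0925 and 0.348. Irf1, an interferon-induced factor that drives Psmb9, was high in 1 library, with 2108 and 2467 counts in DBA/2J and 5827 and 2151 in C57BL/6J.

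Markers of other liver cell types also varied between libraries, and their part in the proteasome values was not tested. Over all genes tested, 18.2% were called in either direction, 8.87% lower and 9.29% higher, which the marker calls below should be set beside. Summed leukocyte markers stood at 42.6 and 44.2 CPM in DBA/2J and 78.3 and 35.2 CPM in C57BL/6J, with 1 of 6 tested, Flt3, called lower. Kupffer cell markers stood at 149 and 154 CPM in DBA/2J and 168 and 132 CPM in C57BL/6J, with 1 of 7, Marco, called lower. Endothelial markers stood at 118 and 136 CPM in DBA/2J and 123 and 101 CPM in C57BL/6J, with 1 of 5, Lyve1, called lower and 1, Stab2, higher. Cholangiocyte markers stood at 23.9 and 24.6 CPM in DBA/2J and 76.5 and 49.8 CPM in C57BL/6J, with 1 of 5, Spp1, called lower. Spp1 made up most of that gap, at 13.6 and 14.4 CPM in DBA/2J and 61.8 and 40.4 CPM in C57BL/6J. Epcam and Sox9 were also negative, at -0.56 and -0.42, and were not called. Krt19 and Krt7 had positive values of 0.56 and 0.41 and were not called. Stellate cell markers stood at 212 and 255 CPM in DBA/2J and 171 and 121 CPM in C57BL/6J, with 1 of 5, Reln, called higher. Neutrophil markers reached 6.11 CPM in C57BL/6J replicate 1 and at most 0.601 CPM elsewhere, with 0 of 2 tested called by edgeR (0 at an unadjusted p under 0.05, 1 lower by DESeq2). No listed marker (0) was at 0 in all 4 libraries.

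Promoter sequences were read for 41 of the 49 members from RefSeq (GRCm38.p6), as the 250 bases before the annotated start. The 3 promoters printed here belong to the core gene and the regulator genes with the largest called differences, Psmb5 (chr14:54617996-54618245, reverse strand), Psmd4 (chr3:95042615-95042864, reverse strand) and Psmd9 (chr5:123227940-123228189, forward strand). The Psmd9 window lies before the RefSeq start, which is inside the longer Psmd9 gene of the count files (123169413 to 123250131 on chromosome 5). The sequences are written 5′ to 3′ in the direction of transcription, and capitals mark matches to the motifs searched.
Psmb5: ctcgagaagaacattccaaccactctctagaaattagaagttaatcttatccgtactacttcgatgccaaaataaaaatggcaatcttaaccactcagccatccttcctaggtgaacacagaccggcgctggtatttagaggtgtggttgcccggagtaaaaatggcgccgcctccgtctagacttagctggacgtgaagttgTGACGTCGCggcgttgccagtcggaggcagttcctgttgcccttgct
Psmd4: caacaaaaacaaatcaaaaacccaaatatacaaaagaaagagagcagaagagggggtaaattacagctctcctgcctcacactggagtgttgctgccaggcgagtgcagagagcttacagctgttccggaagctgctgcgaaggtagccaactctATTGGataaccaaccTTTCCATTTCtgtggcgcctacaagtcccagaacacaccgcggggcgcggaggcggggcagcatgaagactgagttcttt
Psmd9: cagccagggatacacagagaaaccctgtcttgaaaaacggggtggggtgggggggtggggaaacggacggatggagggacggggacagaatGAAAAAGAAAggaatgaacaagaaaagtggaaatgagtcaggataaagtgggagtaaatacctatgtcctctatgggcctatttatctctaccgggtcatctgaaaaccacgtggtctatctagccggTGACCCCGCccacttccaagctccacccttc

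The motifs were searched on both strands, and no matches of different motifs overlapped in the member promoters (0). The core of the antioxidant response element, TGACNNNGC, which is bound by the factors Nfe2l1 and Nfe2l2, matched 5 of 41 member promoters (12.2%), including that of Psmb5, 10.2% of all 27025 promoters and 1320 of the 10959 promoters of other genes tested (12.045%). The CCAAT box, CCAAT, matched 14 of 41 (34.1%), 34.5% of all and 36.2% of those of other tested genes. The interferon-stimulated response element, written as GAAA, any pair of bases and GAAA, matched 3 of 41 (7.32%), 3.04% of all and 2.77% of those of other tested genes. The gamma-activated site, TTCNNNGAA, matched 2 of 41 (4.88%), 7.18% of all and 6.12% of those of other tested genes. The TATA box, TATAAA, matched 4 of 41 (9.76%), which lay below the 13.0% of all promoters and above the 6.90% of those of other tested genes. These matches describe letters of the reference genome, not binding, and sequence of DBA/2J was not used here.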

How the data were processed

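RNA from the livers of 4 mice, 2 per strain, was sequenced after poly(A) capture as single-end reads, per the labels' protocols. The authors deposited raw read counts by gene symbol. The program was featureCounts 2.0.1 per the file headers, run on exons of Ensembl release 88 (GRCm38), with a paired-end option and none for strand or for reads with several alignments. The submitters' processing notes name STAR 2.4.0g1 and featureCounts 1.5.2. The reference genome derives from C57BL/6J, so DBA/2J reads carrying other bases may have been missed or misplaced.

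Total counts were 48096706 to 52520737 per library. The strain label gave the groups, and the titles gave replicate numbers. Counts were tested with edgeR 4.0.16 in R 4.3.3 (quasi-likelihood F test, all genes fitted), with TMM scaling, filterByExpr (minimum count 10), strain as the one term, and Benjamini-Hochberg adjustment over 15647 genes at 0.05. DESeq2 1.42.0 was an alternative. Copies were sought with blastn 2.17.0 among GENCODE M21 transcripts, at 95% identity over at least 500 bases, a minimum length raised after shorter matches proved to be repeats or overlapping genes.

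The fit was tested on simulated counts. Sizes were recovered and unchanged genes gave even p-values. The share of false calls passed the limit first set for it, itself above the nominal rate, when each gene kept its own spread. It lay near the nominal rate when the spread followed the trend. The limit was then dropped and the share recorded. The calls may thus hold more false ones than the adjusted p states, and those near the threshold deserve most caution.

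Members and lists were chosen with earlier results of these data known. Values in every library are given for the 12 called members with the lowest adjusted p, the immunoproteasome genes and their constitutive counterparts, Psme1, Psme2 and members that failed the filter, and other members get log2 values. Of companion lists, up to 4 called genes are named. Results of 1 further companion list are not reported here. Nfe2l1, Irf1, Gm3375, Gm4742, A730017L22Rik, the called markers, Epcam, Sox9, Krt19, Krt7 and the genes whose exons overlap a member were named after their values were seen. No deposited row lacked a gene name (0), and 0 per-sample columns were left unused. Deviations of libraries with the same replicate number correlated at 0.017 across genes. With 2 libraries per strain this value cannot show whether the numbers pair animals, which the labels do not state.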

Additional observations from a re-analysis of the deposited data

How the results depend on the processing

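All 19 members called lower in DBA/2J kept their sign in each of the 14 alternatives, and 10 of the 19 were called in 10 or more of them. With no filter on low counts, 6 members were called lower, of which 4 core, 1 regulator and 0 immunoproteasome genes. Over the 25810 genes then tested, 2.74% were called lower, against 8.87% in the fit reported. In that reported fit, 27 of 48 members had an unadjusted p under 0.05 (edgeR), with no share over all genes given at that threshold. The offset for exon length left 8 members called lower, 4 core, 3 regulator and 0 immunoproteasome genes, where 7.56% of all genes were. The median log2 difference of the members was then -0.18. The offset with the replicate block left 7 members called lower, with 3 core and 3 regulator genes among them, where 6.34% of all genes were. The median of the members was again -0.18. With the replicate block alone, 14 members were called lower and 7.51% of all genes, but the numbers are not known to pair animals. Library totals moved the median of the members to -0.21 and called 14 lower, and 36 of 48 were then negative in place of 40. Those totals also moved the calls over all genes from 1388 lower and 1454 higher to 1024 lower and 1924 higher. Upper quartile scaling gave a median of -0.28. The cause of these changes was not tested.

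Leaving out 1 library at a time gave 1 to 23 members lower and 0 to 1 higher, the latter being Psmd1 without C57BL/6J replicate 2. Core genes called lower numbered 1 to 13, regulator genes 0 to 10 lower and 0 to 1 higher, and immunoproteasome genes 0 to 1 lower. The median of the members ran from -0.31 to -0.28. The lowest counts came from the fits that left out DBA/2J replicate 1 and DBA/2J replicate 2 in turn, whose spread rests on the C57BL/6J pair, and in which Psmb5 stayed called. The log2 ratio of Psmb10 to Psmb7 was -0.54 and ran from -0.82 to -0.27, and was -0.27 without C57BL/6J replicate 1. An alternative chosen after seeing the data, in which reads of annotated copies were added, changed the log2 ratio of Psmb8 to Psmb5 from 1.46 to 0.98 and left 19 members called lower. This alternative is among the 14 and nearly repeats the fit reported for members without a copy. Psmb2 and Psmb10 reached 10 alternatives only with it counted. Depth limits Psma8, at 39 to 103 counts, and Psme2b, at 22 to 30 counts; the other tested members had a mean of at least 5 CPM.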
